A study of Homo sapiens with 6 samples.

Results

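The complement genes described here were the components C3, CFB, C1R and C1S and the inhibitors CFI, SERPING1, CD46, CD55 and CD59. They were taken by gene symbol alone and made up 9 of the 16250 genes with deposited values. Complement is a cascade of plasma proteins that marks surfaces for clearance and can end in a pore in the target membrane. C1r and C1s are the paired proteases that start the classical pathway, C3 is the protein on which all pathways converge, and factor B carries the protease of the alternative pathway. Host cells hold the cascade back with soluble inhibitors (C1 inhibitor, encoded by SERPING1, and factor I) and with inhibitors on the cell surface (CD46, CD55 and CD59). Tubule epithelium is a known local source of C3 and other components in the kidney.

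RNA was sequenced from HK-2 cells, an immortalized human line of proximal tubule epithelium, given 20 µM substance P (SP) for 48 h or PBS as the control, with 3 libraries in each group. Both groups carried the receptor for SP, NK-1R, which had been introduced with a lentiviral vector followed by puromycin selection, so no comparison with cells lacking the added receptor was possible. Separate cultures are not stated for the libraries in the sources read, and p-values then measure only the spread between these libraries. Values are FPKM (fragment counts divided by transcript length and by the mapped fragments in the library), so levels can be set side by side between genes, but the number of reads behind each value is unknown. Differences are given on the scale of log2(FPKM + 1), which understates the change of genes with low FPKM.

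TACR1, the gene of NK-1R, had 15.7, 25.8 and 33.0 FPKM in the control libraries and 78.5, 123 and 141 FPKM in the SP libraries. Its log2 fold change was 2.17 (limma adjusted p = 0.00207, standard error 0.28), and the values do not separate vector from endogenous transcript. SP exposure and the higher NK-1R transcript went together in these libraries, so their parts in any complement result cannot be told apart. Whether the selected cells were 1 clone or a pool is not stated in those sources either. The libraries within a group correlated with r of 0.990 to 0.996 across the log values of the genes tested, and the deposited FPKM of a library summed to between 672807 and 760889. Of 8 markers of cultured epithelium, 7 passed the filter on low values, while CDH1 was at 0.07 FPKM or less. Of 10 proximal tubule markers, AQP1 and GGT1 passed. The summed level of the list was 46.1 to 65.3 FPKM in control and 55.2 to 57.8 FPKM in SP libraries, nearly all of it GGT1. AQP1 was higher with SP (0.27 to 0.41 FPKM in control, 0.63 to 0.87 FPKM in SP) and passed the filter through the SP libraries only. Of 10 leukocyte markers, 4 passed (CD14, CD68, CSF1R and FCER1G), whereas the defining marker PTPRC was at 0 in 5 libraries and at 0.01 FPKM in the other. The summed leukocyte list was 114 to 120 FPKM in control and 112 to 120 FPKM in SP libraries, nearly all of it the lysosomal gene CD68. Markers of other cell types that can make complement moved in part with the groups. Of 6 fibroblast markers, COL1A1 and LUM passed and both fell (summed list 23.4 to 29.8 FPKM in control and 15.7 to 18.1 FPKM in SP). Of 5 hepatocyte markers, SERPINA1 passed and fell, with ALB at 0.03 FPKM or less. The summed hepatocyte list was 34.6 to 67.1 FPKM in control and 18.5 to 29.2 FPKM in SP, nearly all of it SERPINA1. The 5 endothelial markers were all below the filter or not found by symbol among the genes with values (summed list 0.05 to 0.07 and 0.33 to 0.67 FPKM). The part of any of these cell types in the complement results was not tested.

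CD55 rose with SP, CFI and C1R fell, and the level of C3, the most abundant of the 9 transcripts, was nearly the same in both groups. Of the 9 genes, 8 passed the filter of at least 0.5 FPKM in at least 3 libraries, and SERPING1 was below it. Among the 4 components tested, none was higher and 1 was lower at an adjusted p under 0.05 from limma. Among the 4 inhibitors tested, 1 was higher and 1 was lower. At the same threshold 8.57% of all 12127 tested genes passed as higher and 12.0% as lower. These shares depended on how libraries were scaled, with 1039 genes higher and 1457 lower as deposited, 1283 and 912 with median-ratio scaling, and 1044 and 751 with equal FPKM totals. CD55 and CFI also differed by at least 2-fold, as did 1.29% of all genes in the higher direction and 0.305% in the lower. The 3 control and the 3 SP libraries did not overlap for 2 of the 8 genes in the higher direction (CD55 and CD46) and for 3 in the lower (CFI, C1R and C1S), against 15.9% and 26.1% of all genes. The median log2 fold change was -0.21 over the 4 components, 0.11 over the 4 inhibitors and -0.05 over all genes tested.

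**Figure D1:**
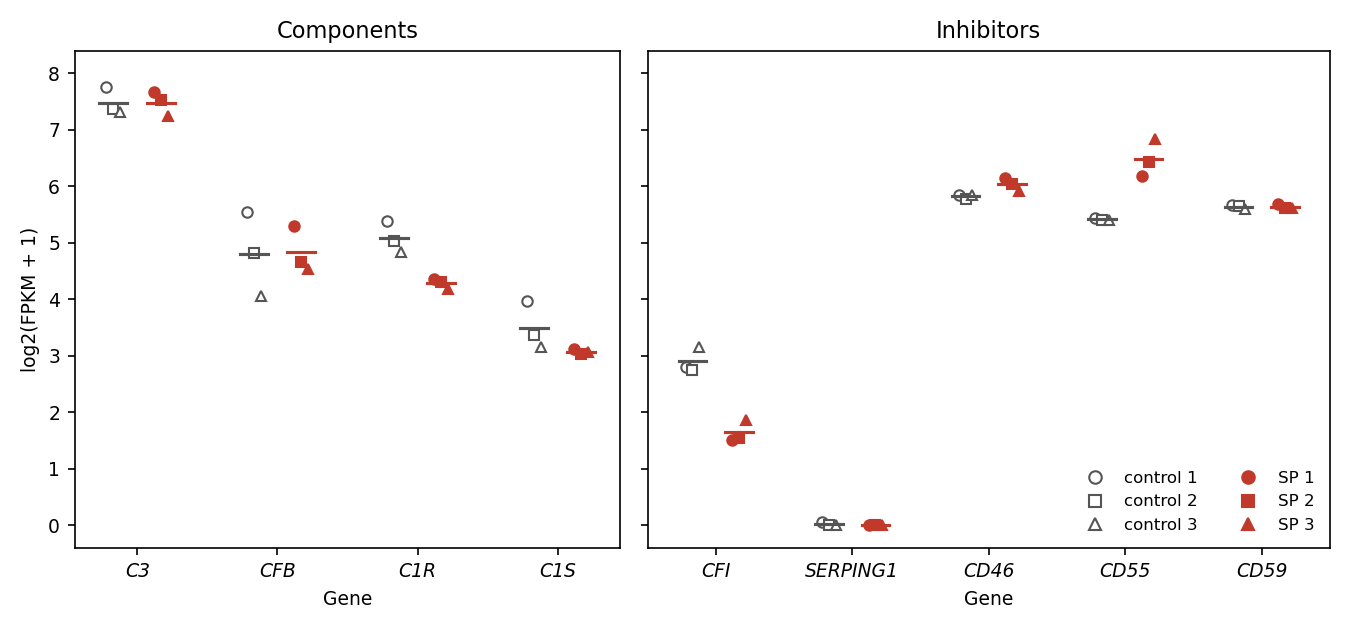
Level of each of the 9 genes as log2(FPKM + 1) in the 3 control libraries (open gray symbols) and the 3 SP libraries (filled red symbols), with the symbol shape giving the replicate number and a line at the group mean. CD55 lies higher in every SP library (71.5 to 114 FPKM) than in any control library (41.3 to 42.4 FPKM), CFI and C1R lie lower, and SERPING1 lies at or near 0.

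Promoter windows were looked up for all 9 genes and are shown for those that passed the test, and for CD46, from the same gene cluster as CD55. RefSeq windows of 300 bases (250 before and 50 after the annotated start, GRCh38.p14) matched 6 of the 9 genes. The windows below run from 5′ to 3′ on the strand of the gene, at chr1:207321428-207321727 for CD55 (plus strand), chr1:207751788-207752087 for CD46 (plus), chr4:109801950-109802249 for CFI (minus) and chr12:7092396-7092695 for C1R (minus). Capitals mark every match, on either strand, to 1 of 9 motifs searched.
CD55: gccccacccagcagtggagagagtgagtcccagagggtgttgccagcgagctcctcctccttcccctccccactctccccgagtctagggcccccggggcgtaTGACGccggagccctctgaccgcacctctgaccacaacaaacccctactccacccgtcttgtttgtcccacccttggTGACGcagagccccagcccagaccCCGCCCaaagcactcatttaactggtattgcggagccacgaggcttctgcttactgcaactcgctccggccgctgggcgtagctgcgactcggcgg
CD46: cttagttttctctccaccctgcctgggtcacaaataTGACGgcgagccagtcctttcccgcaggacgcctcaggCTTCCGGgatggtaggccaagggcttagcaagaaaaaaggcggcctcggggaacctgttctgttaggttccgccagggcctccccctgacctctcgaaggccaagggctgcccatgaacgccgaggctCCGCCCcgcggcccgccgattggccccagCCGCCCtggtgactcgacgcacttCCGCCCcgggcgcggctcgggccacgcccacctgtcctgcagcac
CFI: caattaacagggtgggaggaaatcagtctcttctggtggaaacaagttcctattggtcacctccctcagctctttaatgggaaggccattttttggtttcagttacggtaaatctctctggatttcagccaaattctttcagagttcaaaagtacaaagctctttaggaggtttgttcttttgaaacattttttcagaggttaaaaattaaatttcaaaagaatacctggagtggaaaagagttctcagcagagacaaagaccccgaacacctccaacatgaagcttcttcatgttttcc
C1R: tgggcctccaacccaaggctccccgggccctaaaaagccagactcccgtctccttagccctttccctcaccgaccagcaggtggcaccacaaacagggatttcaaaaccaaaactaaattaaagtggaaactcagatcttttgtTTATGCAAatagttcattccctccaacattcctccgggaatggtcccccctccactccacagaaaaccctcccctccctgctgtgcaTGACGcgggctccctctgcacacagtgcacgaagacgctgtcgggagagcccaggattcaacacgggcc

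The motifs were the NF-kB site and the SRF CArG box (by name), the AP-1 site TGANTCA, the CRE core TGACG, the GAS element TTCNNNGAA, the C/EBP site TTNNGCAA, the ETS site CCGGAAG, the GC box GGGCGG and the TATA box TATAAA. The CD55 window held the CRE core at -147 to -143 and again at -70 to -66, counted from the annotated start, and a GC box at -46 to -41. Of 35116 windows of the same length, 24.6% held the CRE core at least once and 6.02% held 2 or more, while 45.0% held a GC box, 10.5% the C/EBP site, 10.3% the ETS site, 11.5% the TATA box, 7.71% the AP-1 site and 1.29% the CArG box. CD46 held 1 CRE core, 1 ETS site and 3 GC boxes, and C1R held a C/EBP site at -106 to -99 and a CRE core at -19 to -15. The CFI window held none of the 9 motifs. It also had the lowest GC content, 39.3% with 2 CpG dinucleotides, against 65.0% with 19 for CD55, 67.0% with 25 for CD46 and 55.3% with 10 for C1R (medians of 58.7% and 14 over all windows). CFB, whose window is not shown, held an NF-kB site at -112 to -103, a GAS element at -92 to -84 and a TATA box at -30 to -25 (the first 2 were found in 11.3% and 7.66% of all windows), and CD59 held a GAS element and 2 GC boxes. No matches overlapped each other in these windows. A match describes the letters only and does not show that a factor binds there.

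C3, the central component of the cascade, is transcribed from the minus strand of chromosome 19, between 6677704 and 6730562 in GRCh38 (GENCODE 29). Its FPKM was 215, 164 and 158 in the control libraries and 202, 184 and 149.8 in the SP libraries. The groups overlapped throughout, and C3 ranked between 449th and 624th of the 16250 genes in each library. The log2 fold change was 0.00 (limma adjusted p = 0.998, standard error 0.14), with a 95% interval of -0.32 to 0.32, which spans 0.802 to 1.25 times the control level of FPKM + 1.

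CFB encodes factor B, which joins C3b to form the convertase of the alternative pathway, and lies on chromosome 6 from 31945650 to 31952084. Its FPKM was 45.65, 27.1 and 15.6 in control and 38.25, 24.4 and 22.2 in SP-treated cells. CFB had the largest standard error of the 8 genes on the log2(FPKM + 1) scale, and its mean was 29.4 ± 15.2 FPKM (SD, n = 3) in control and 28.3 ± 8.71 FPKM (SD, n = 3) in SP. Its log2 fold change of 0.03 (limma adjusted p = 0.959, standard error 0.34) had an interval of -0.75 to 0.81, or 0.594 to 1.75 times the control level of FPKM + 1, and a difference inside that range was not detectable with these libraries. It was 0.40 without control library 1, -0.35 without control library 3 and -0.20 without SP library 1, and its adjusted p was 0.326 or higher in all 13 alternatives. In bulk RNA a lower level in each cell and fewer cells with the transcript cannot be told apart, which holds for every gene here.

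C1R and C1S lie next to each other on chromosome 12, C1S from 6988259 to 7071032 on the plus strand and C1R from 7080199 to 7092607 on the minus strand, with their ends facing across 9.17 kb. Their products form the tetramer of proteases that binds C1q, in which C1r cleaves C1s and C1s then cleaves C4 and C2. C1R had 41.0, 31.8 and 27.5 FPKM in control and 19.4, 18.8 and 17.2 FPKM in SP-treated cells. Each SP library was below each control library, and the spread among the SP libraries was the smaller one. The mean fell from 33.4 ± 6.86 to 18.5 ± 1.15 FPKM (SD, n = 3 each), a log2 fold change of -0.80 (limma adjusted p = 0.00549, standard error 0.13). It stayed between -0.93 and -0.65 in the 13 alternatives, each with an adjusted p under 0.05 (0.00212 to 0.0257).

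C1S had 14.6, 9.34 and 7.93 FPKM in control and 7.74, 7.13 and 7.42 FPKM in SP-treated cells. The groups did not overlap, but the third control library lay close to the SP libraries, and C1S did not pass the test. Its log2 fold change was -0.42 (interval -0.83 to -0.01, limma adjusted p = 0.129, standard error 0.18). Without the third control library it was -0.59 (adjusted p = 0.0386), and without the first control library it was -0.19 (adjusted p = 0.196). The ratio of C1R to C1S within a library was 2.80 to 3.47 in control and 2.32 to 2.64 in SP-treated cells. C1RL, a C1r-like protease gene that overlaps C1R by 3021 bases on the same strand, had 5.07 ± 0.747 and 4.13 ± 0.486 FPKM (log2 fold change -0.24, limma adjusted p = 0.177). Reads in the shared exons could have been counted for either gene. The C1 inhibitor gene SERPING1, whose product blocks C1r and C1s (chromosome 11, 57597387 to 57614853), was listed at 0.04 FPKM in the first control library and at 0 in the other 5, so its response could not be measured.

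CFI encodes factor I, the plasma protease that cuts C3b and C4b once a cofactor holds them, and lies on chromosome 4 from 109740694 to 109802179. Its FPKM was 5.99, 5.73 and 7.89 in control and 1.86, 1.92 and 2.65 in SP-treated cells. Every SP library lay well below every control library. The mean fell from 6.54 ± 1.18 to 2.14 ± 0.440 FPKM (SD, n = 3 each), to 0.328 of the control level. On the log2(FPKM + 1) scale this was -1.26 (limma adjusted p = 0.00114, standard error 0.14), and -1.57 on that of log2(FPKM + 0.1). The adjusted p was 0.000305 to 0.00899 over the 13 alternatives. C3b, a cleavage product of C3, is a target of factor I, and the FPKM of CFI came to 2.79%, 3.50% and 5.00% of that of C3 in control and 0.921%, 1.04% and 1.77% in SP-treated cells. In GENCODE 29 the exons of CFI are shared in part with AC126283.2, a coding gene on the same strand, and the same holds for CFB with C2 and AL645922.1, C1S with EMG1, and CD59 with AL049629.2.

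The cell surface inhibitors act at different steps of the cascade. CD55, or decay-accelerating factor, splits the convertases apart, CD46 is the cofactor with which factor I degrades C3b and C4b, and CD59 stops the membrane pore from forming. CD55 had 42.4, 41.3 and 41.6 FPKM in control and 71.5, 85.5 and 114 FPKM in SP-treated cells. The control libraries lay within about 1 FPKM of each other, whereas the SP libraries were spread out and all of them higher. The mean rose from 41.8 ± 0.532 to 90.3 ± 21.5 FPKM (SD, n = 3 each), 2.16 times the control level. The log2 fold change was 1.07 (interval 0.74 to 1.40, limma adjusted p = 0.00266, standard error 0.14). Without the third SP library, the highest, it was 0.89 (adjusted p = 0.00214) and no longer reached 2-fold. The adjusted p was 0.00153 to 0.0128 over the 13 alternatives.

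CD46 had 56.8, 53.6 and 56.6 FPKM in control and 69.8, 64.9 and 59.6 FPKM in SP-treated cells. The lowest SP library (59.6 FPKM) was just above the highest control library (56.8 FPKM), so the groups were separated by little. The log2 fold change of 0.21 (standard error 0.07, interval 0.05 to 0.38) did not pass, with a limma adjusted p = 0.0694. It passed with median-ratio scaling (adjusted p = 0.0403), with quantile normalization (adjusted p = 0.0482) and without the third SP library (adjusted p = 0.0487), and the adjusted p was at most 0.208 in the 13 alternatives.

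CD59 had 50.2, 49.0 and 47.3 FPKM in control and 50.3, 48.1 and 47.8 FPKM in SP-treated cells. The groups overlapped, and the interval of its log2 fold change, -0.14 to 0.13, was the narrowest of the 8 genes (limma adjusted p = 0.98, standard error 0.06). CD59 lies on the minus strand of chromosome 11 from 33703010 to 33736491, away from the others. CD55 (207321376 to 207386804) and CD46 (207752057 to 207795513) lie on the plus strand of chromosome 1 in the cluster of complement regulator genes, 365 kb apart, with CR2, CR1 and CR1L between them. CR1 and CR1L were at 0.04 FPKM or less in every library. GENCODE 29 lists 11 coding transcripts for CD46 and 9 for CD55, and gene-level FPKM merges these splice forms.

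**Figure D2:**
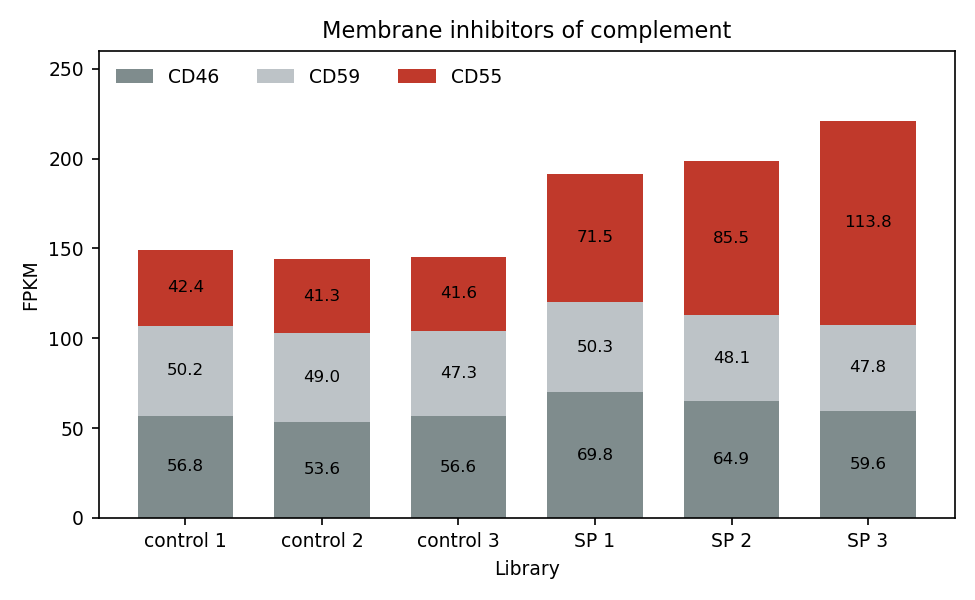
FPKM of CD46, CD59 and CD55 stacked for each of the 6 libraries, with the value of each gene printed in its bar. CD55 made up 28.4% to 28.7% of the sum in the control libraries and 37.3%, 43.1% and 51.4% in the SP libraries, while CD59 stayed between 47.3 and 50.3 FPKM.

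The order of levels changed with these differences. In control cells the mean FPKM descended from C3 (179) through CD46 (55.7), CD59 (48.8), CD55 (41.8), C1R (33.4), CFB (29.4), C1S (10.6) and CFI (6.54) to SERPING1. C1R and CFB were the only neighbors in this order whose control libraries overlapped. In SP-treated cells CD55 (90.3) moved ahead of CD46 (64.8) and CD59 (48.7), and CFB (28.3) stood ahead of C1R (18.5), with no overlap between neighbors. The ratio of CD55 to CD59 within a library, which does not depend on the scaling between libraries, was 0.843 to 0.879 in control and 1.42, 1.78 and 2.38 in SP-treated cells. The summed FPKM of the 5 inhibitors was 155, 150 and 153 in control and 194, 200 and 224 in SP-treated cells. That of the 4 components was 316, 232 and 209 in control and 267, 234 and 197 in SP-treated cells, with C3 giving 68.0% to 78.5% of it. The inhibitor sums did not overlap between the groups and the component sums did, and no test was made on these sums. The higher inhibitor sum came largely from CD55, so it does not show a rise of the inhibitors as a class. Averaged over the 5 inhibitors as log2(FPKM + 1), where each gene counts alike, both groups had a mean of 3.96. Single libraries ranged from 3.91 to 4.0 for control and from 3.9 to 4.05 for SP.

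The rest of the complement system was followed with a list of 54 further genes written from general knowledge. Of these, 23 were not found by symbol among the genes with values, 20 had values below the filter and 11 were tested. Of the genes tested, 3 rose and 3 fell, where 8.57% of all genes tested were higher and 12.0% lower. Their median log2 fold change was -0.12, against -0.05 over all genes. Among the components, C2, C4A and C4B, the next substrates of C1s, had at most 0.26 FPKM in any library, and C5 had 0.35 to 0.57 FPKM. COLEC10, a collectin of the lectin pathway, rose from 1.29 ± 0.505 to 3.52 ± 0.808 FPKM (SD, n = 3 each), 0.99 higher on the log2 scale (limma adjusted p = 0.00826).

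Of the 4 further regulators tested, 2 fell and none rose, too few to set against the 12.0% of all genes that were lower. SUSD4, a membrane regulator with sushi domains, fell from 3.61 ± 0.805 to 1.59 ± 0.230 FPKM (log2 fold change -0.82, limma adjusted p = 0.00626). PROS1, protein S, which binds the C4b-binding protein, had 12.6 to 13.6 FPKM in control and 9.78 to 10.2 FPKM in SP-treated cells (log2 fold change -0.35, limma adjusted p = 0.0116, and 0.0599 without the second SP library). THBD and CLU did not pass. THBD, chosen after its values were seen, had 0.40 to 0.64 FPKM in control and 0.83, 1.53 and 3.84 FPKM in SP-treated cells (limma adjusted p = 0.0737). Its adjusted p was 0.0295 with the replicate number as a block and 0.022 without the first SP library.

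Of the 4 receptors and binding proteins tested, ITGB2 and C5AR1 rose, C1QBP fell and ITGAX did not pass. ITGB2, the shared beta chain of complement receptors 3 and 4, had 4.36 to 5.51 FPKM in control and 16.0 to 17.3 FPKM in SP-treated cells (limma adjusted p = 9.35e-05). Its partner chains were low, ITGAM at 0.07 FPKM or less and ITGAX at 0.48 to 0.88 FPKM in all libraries. These are leukocyte genes, and of the 4 leukocyte markers that passed the filter only FCER1G rose (0.38 to 0.56 FPKM in control, 1.86 to 5.57 FPKM in SP). CD14 (2.49 to 4.09 FPKM in control, 1.45 to 3.36 FPKM in SP), CD68 and CSF1R did not pass the test. PTPRC was at 0.01 FPKM or less, and whether leukocytes had a part in the rise of ITGB2 was not tested. C5AR1, the receptor for C5a, had 1.66, 1.74 and 0.87 FPKM in control and 2.24, 2.37 and 3.03 FPKM in SP-treated cells. Its log2 fold change of 0.56 had a limma adjusted p = 0.041 and an adjusted p = 0.055 with the replicate number as a block, and it was above 0.05 in 7 of the 13 alternatives, among them the fits without control library 2 or 3 or without any 1 SP library (0.054 to 0.118). C3AR1, the receptor for C3a, was below the filter, with 0.72, 0.45 and 0.66 FPKM in control and 0.08, 0.29 and 0.31 FPKM in SP-treated cells. It was chosen after its values were seen, and in a fit with no filter its log2 fold change was -0.39 (limma adjusted p = 0.0461). C1QBP, an abundant mitochondrial protein named for its binding to C1q, went from 236 ± 7.95 to 190 ± 8.49 FPKM (limma adjusted p = 0.0112), and did not pass without the second control library (0.0577) or the second SP library (0.0644). Its exons overlap those of RPAIN and DHX33, and those of ITGB2 overlap the antisense gene ITGB2-AS1, so some of these reads may belong to the neighbors.

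**Figure D3:**
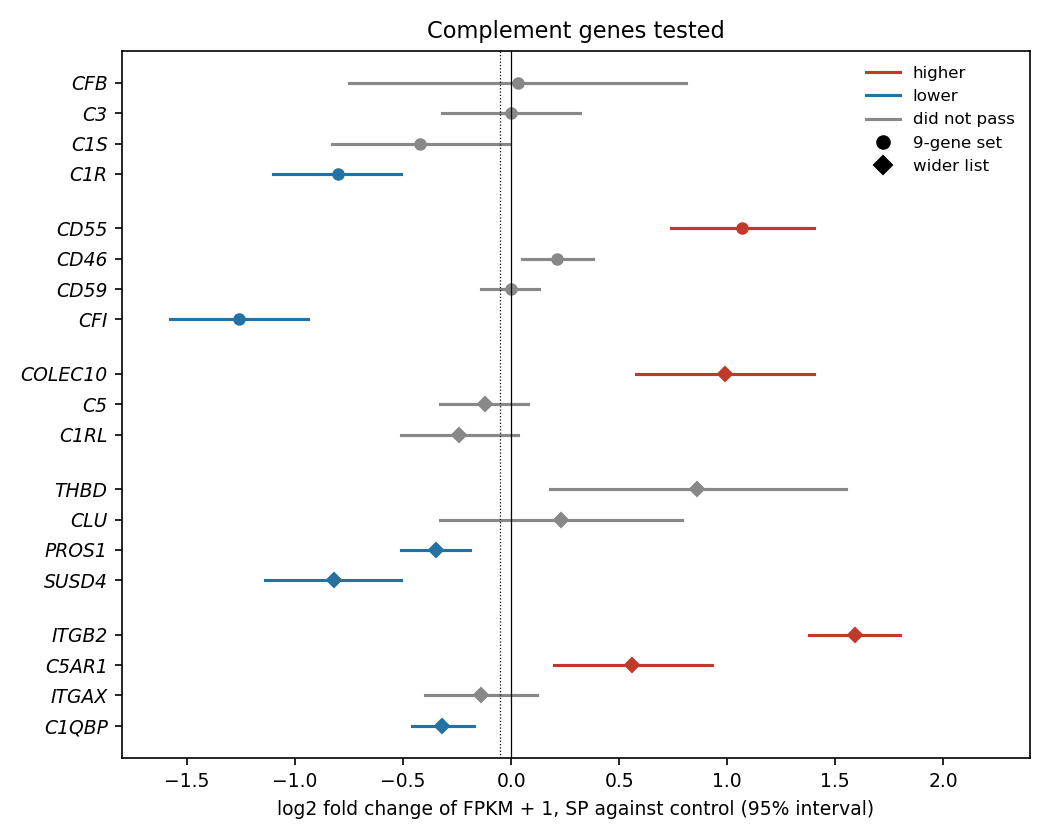
Log2 fold change of FPKM + 1 in SP against control with its 95% interval for the 8 of the 9 genes that were tested (circles) and the 11 further complement genes tested (diamonds), in red where higher, blue where lower and gray where the adjusted p was not under 0.05. CD55 (1.07) and CFI (-1.26) lie on opposite sides of 0, C3 and CD59 lie at 0, and the dotted line is the median of all genes tested (-0.05).

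**Figure D4:**
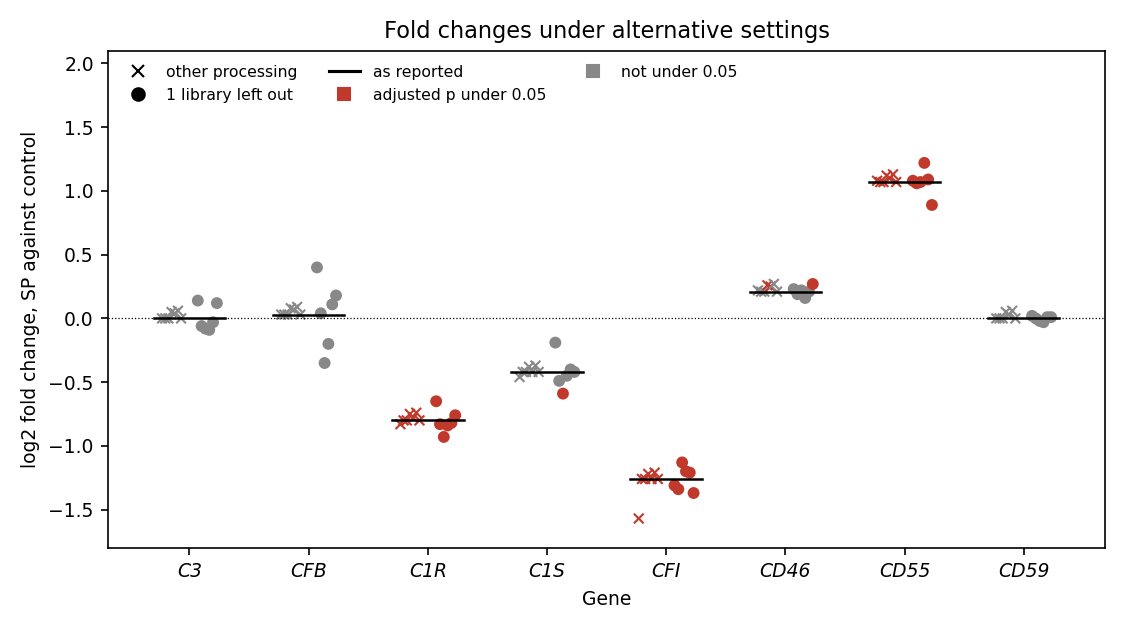
Log2 fold change in SP against control for the 8 genes tested as reported (black line), under 7 other ways of processing (crosses) and with 1 library left out (dots), in red where the adjusted p was under 0.05. CFI, C1R and CD55 are red throughout, C1S is red once and CD46 3 times, and the values of CFB range from -0.35 to 0.40.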

How the data were processed

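Members and lists were chosen with earlier results of these data known. The genes named are the 9 members, the further complement genes that passed the test, TACR1 and defining cell markers, and other complement genes given with values (C1RL, C2, C4A, C4B, C5, CR1, CR1L, THBD, C3AR1, ITGAM, ITGAX) were chosen after their values were seen. A further complement gene was left out of the list and its counts and is not reported here.

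The authors aligned cleaned DNBSEQ read pairs with HISAT against GRCh38.p13, estimated expression with RSEM and deposited FPKM values for each gene and library, rounded to 2 decimals. The submitters' processing notes name HISAT2 and Bowtie2, and how strand was handled is not given in the sources read. The values of single-library files equalled those of the matrix for all 16250 genes. FPKM values alone do not give read counts, so depth is unknown.

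Here genes with at least 0.5 FPKM in at least 3 libraries (12127) were put on the log2(FPKM + 1) scale and compared in limma (version 3.58.1, R 4.3.3) using a variance trend and Benjamini-Hochberg adjustment over all genes tested. The test was checked on simulated data with unpaired libraries and changes planted only in genes of higher FPKM. That check does not cover paired libraries or the detection of changes in genes of low FPKM. Deviations from group means correlated by 0.165, 0.223 and 0.170 between libraries of the same replicate number, and by -0.148 to -0.036 otherwise. Deviations cancel within a group, so negative values follow where others are positive and are not separate evidence. Numbers were taken to pair the libraries, but the reported p-values and intervals come from the fit without a block, which leaves any pairing out. A fit with the replicate block was run as an alternative, and its values are given where the block is named. The labels do not say what a number stands for. Other alternatives were another pseudocount, no filter, 3 scalings, no trend and each library left out. Intervals are 95% intervals from limma, and ± is the SD over 3 libraries. Positions are from GENCODE 29, while the deposited genes carry NCBI identifiers, and the promoter windows are from RefSeq.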

Additional observations from a re-analysis of the deposited data

How the results depend on the processing

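The directions of CD55, CFI and C1R, and their adjusted p under 0.05, held in all 13 alternatives. The fit with the replicate block changed no call among the 9 genes (adjusted p = 0.0714 for C1S, 0.0683 for CD46), changed those of C5AR1 (no longer passing) and THBD (passing) and no other in the wider list, and gave 1184 genes higher and 1589 lower over all genes. The number of the 9 genes that were higher was 2 in place of 1 with median-ratio scaling and with quantile normalization, where CD46 (log2 fold change 0.26 and 0.25) passed. With 1 library left out it was 1 to 2, and the number higher by at least 2-fold was 0 to 1. The log2 fold change ranged from 0.16 to 0.27 for CD46, from -0.59 to -0.19 for C1S and from -0.35 to 0.40 for CFB. Of the wider list, 1 to 3 genes were lower with 1 library left out (1 without SP library 2 and 2 without control library 2), and 4 were lower with no filter. Over all genes, 474 to 1117 were higher and 426 to 1413 lower with 1 library left out, and both counts were lowest without SP library 2 and low without control library 2 (589 and 601) or SP library 3 (662 and 824). The genes lower numbered 912 with median-ratio scaling and 751 with equal FPKM totals, and those lower by at least 2-fold numbered 87 with log2(FPKM + 0.1). The cause of these changes was not tested. The number of reads is not known, so what depth limits for SERPING1 and the other genes near 0 FPKM could not be worked out. FPKM cannot separate splice forms or reads of overlapping genes.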

Other observations

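Within each group, the library with the lowest TACR1 level had the highest level of all 4 components. The inhibitors CD46 (56.8 and 69.8 FPKM) and CD59 (50.2 and 50.3 FPKM) were also highest there, so this was not particular to components. The FPKM total over all genes was also highest in the first control library (760889) and lowest in the third (672807). In the SP group that total was 686345 in the first library and 688407 in the third. In the first control library TACR1 was at 15.7 FPKM, C3 at 215, CFB at 45.65, C1R at 41.0 and C1S at 14.6 FPKM, and in the third control library, where TACR1 was highest (33.0 FPKM), each of the 4 components was at its lowest control level. In the first SP library TACR1 was at 78.5 FPKM, the lowest of the SP group, and C3 (202), CFB (38.25), C1R (19.4) and C1S (7.74 FPKM) were at their highest SP level. In the third SP library, where TACR1 was highest (141 FPKM), C3, CFB and C1R were at their lowest SP level, but C1S was lowest in the second (7.13 against 7.42 FPKM). CFI was highest in the third library of each group (7.89 and 2.65 FPKM), as was TACR1. CD55 was highest in the SP library with the most TACR1 (114 FPKM) and nearly level among the control libraries (41.3 to 42.4 FPKM). With 3 libraries in a group these orders were not tested, and same-numbered libraries deviated together over all genes, so the groups are not independent instances.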
